A study of Mus musculus with 6 samples.

Results

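The genes described here are Tkt, the gene deleted in the study, its paralog Tktl1, and 8 further enzymes of the pentose phosphate pathway and of the step that leads out of it into nucleotide synthesis. They were picked by symbol from the deposited expression table, and all 10 of 10 were found among its 18493 genes. Regulatory T (Treg) cells, a kind of CD4 T cell, hold back immune reactions and are specified by the transcription factor Foxp3. They were sorted by CD4, CD25 and YFP from spleen and lymph node of C57BL/6 females 7 weeks old. The 3 control libraries (WT) came from Foxp3cre/+ mice and the 3 conditional knockout libraries (cKO) from Foxp3cre/+ TKTfl/fl mice, so that both groups carry the Cre allele and differ in the floxed gene. All were untreated. Cre is driven by Foxp3, an X-linked gene present here in a single Cre copy, so each mouse is a mosaic of Treg cells and the sort takes those in which the tagged allele is active. The labels do not say whether a library pools animals, and nothing beyond the spread of these 6 libraries enters the p-values.

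The pentose phosphate pathway branches off glycolysis at glucose 6-phosphate. Its oxidative branch makes NADPH and a pentose phosphate, and its non-oxidative branch rearranges pentose phosphates into glycolytic intermediates in reversible steps that transketolase and transaldolase catalyse. Ribose 5-phosphate, shared by both branches, is the starting point of nucleotides. In T cells the pathway is known for supplying NADPH and ribose to dividing cells.

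Some of these enzymes have related copies in the genome, and reads of 1 gene could be counted for its copy where the sequences are the same. The coding sequences of the GENCODE M21 transcripts (GRCm38, the build also called mm10) show how far the copies differ. Tkt (1869 coding bases in 14 exons) and Tktl1 (1785 coding bases in 13 exons) had the same base at 64.8% of aligned positions, and the longest run they shared was 20 bases, in exon 10 of Tkt (chr14:30570232-30570251, plus strand) and exon 9 of Tktl1 (chrX:74202560-74202579, plus strand). That run is in capitals below with its flanks.
Tkt: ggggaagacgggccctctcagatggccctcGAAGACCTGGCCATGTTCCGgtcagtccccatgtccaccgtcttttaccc
Tktl1: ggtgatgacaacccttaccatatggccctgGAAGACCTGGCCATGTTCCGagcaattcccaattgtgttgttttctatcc
Prps1 and Prps2, both with 954 coding bases, were identical at 80.0% of positions, and their longest shared run was also 20 bases, in exon 5 of each gene (chrX:140472094-140472113, plus strand, and chrX:167352193-167352212, minus strand).
Prps1: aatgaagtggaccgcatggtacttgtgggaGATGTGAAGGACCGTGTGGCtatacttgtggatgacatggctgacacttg
Prps2: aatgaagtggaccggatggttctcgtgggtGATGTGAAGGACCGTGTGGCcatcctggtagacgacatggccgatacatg
G6pdx is different, because a copy with a single exon, G6pd2 on chromosome 5, matched it at 94.7% of positions and shared a run of 105 bases with it (exons 7 and 8 of G6pdx, minus strand).
G6pdx: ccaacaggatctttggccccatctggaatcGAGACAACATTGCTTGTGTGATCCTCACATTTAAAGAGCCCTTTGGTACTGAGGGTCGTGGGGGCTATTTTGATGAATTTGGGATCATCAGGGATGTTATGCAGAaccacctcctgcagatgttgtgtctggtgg
G6pd2: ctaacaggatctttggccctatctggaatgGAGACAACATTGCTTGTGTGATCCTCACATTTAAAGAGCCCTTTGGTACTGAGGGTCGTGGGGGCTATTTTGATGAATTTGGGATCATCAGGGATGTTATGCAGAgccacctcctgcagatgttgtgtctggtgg
The deposited estimated counts of Tkt, Tktl1, Taldo1 and Rpia were whole numbers (within 0.01) in all 6 libraries. Those of the other members were fractional in 2 (G6pdx) to 6 libraries (H6pd and Prps1). Of the 3 pairs compared, G6pdx and G6pd2 had the longest stretch in common. Copies of the other members were not looked up.

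The libraries held 17180577 to 18215168 estimated reads. In CPM (counts scaled to a common library size), Foxp3 stood at 458 to 686 in WT and 559 to 676 in cKO. Cd4 stood at 769 to 930 and 735 to 844 CPM. Of the 5 Treg markers looked up, Ikzf2 alone did not overlap (626 to 714 CPM in WT, 537 to 608 CPM in cKO). Over all genes tested, 8.12% were lower in cKO without overlap. Ctla4 ran from 492 CPM in cKO3 to 1726.8 CPM in WT2. The Treg markers summed to 3026.8 to 3665.0 CPM in WT and 2687.6 to 3054.1 CPM in cKO, which overlap. WT2 and cKO1 stood apart from the rest on the first principal component (25.4 and 33.2, against -25.9 to 8.1), and log2 fold changes without them are given beside several results below. The 6 erythroid markers summed to 197 CPM in cKO1 and to at most 5.56 CPM elsewhere. Summed markers of B cells were 11.9 to 12.0 CPM in WT and 9.75 to 24.8 CPM in cKO, those of myeloid cells 34.5 to 65.1 and 40.5 to 92.2 CPM, and those of stroma and endothelium 2.88 to 18.3 and 14.6 to 19.3 CPM. NK cell markers summed to 1.41 to 2.11 and 0.93 to 1.58 CPM. The 2 CD8 T cell markers summed to 14.7 to 18.4 CPM in WT and 20.1 to 21.2 CPM in cKO. Theirs was the only sum without overlap among these 6 lists of other cell types. Each CD8 marker alone overlapped between the groups. Cd8a stood at 2.0 to 3.27 CPM in WT and 3.23 to 5.7 CPM in cKO, and Cd8b1 at 12.7 to 15.1 and 14.4 to 17.8 CPM. The part of other cell types in the results below was not tested.

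Tkt was lower in every cKO library, and the 8 enzymes other than Tktl1 had fitted log2 differences of at most 0.12 in size. Tkt encodes transketolase, which moves units between sugar phosphates of the non-oxidative branch with thiamine diphosphate as its cofactor, and lies on chromosome 14 at positions 30549131 to 30574724. Its estimated counts were 2273, 1624 and 2141 in WT1 to WT3 and 903, 821 and 572 in cKO1 to cKO3. In CPM these were 126, 97.1 and 121 against 52.5, 44.8 and 31.9. The lowest WT library (WT2) was thus well above the highest cKO library (cKO1), and the deleted gene went with the labels in all 6. The level in cKO was 37.6% of WT (95% interval 27.6% to 51.1%; log2 fold change -1.41 ± 0.19 SE). By edgeR's quasi-likelihood test the p was 0.000116, which ranked 29 among 12887 genes tested, and the adjusted p of 0.0516 fell just outside the threshold of 0.05. By log2 fold change Tkt ranked 57 among the falls.

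Tkt was called by 5 of 16 alternatives, which were DESeq2 (adjusted p = 2.17e-10), no low-count filter (0.0263), a stricter filter (0.047), edgeR's newer fit (0.0473) and the fit without WT2 and cKO1 (log2 fold change -1.68, adjusted p = 0.0331). Without cKO2 its adjusted p was 0.217, the highest of all. Transcript remained in all cKO libraries, at 12.74 to 19.79 FPKM (fragments scaled by gene length and library depth, the unit for comparing genes of different length). In bulk RNA, a lower level in every cell and a loss in part of the cells cannot be told apart, the counts cover the whole gene, and the sources used here do not name the floxed exons.

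**Figure D1:**
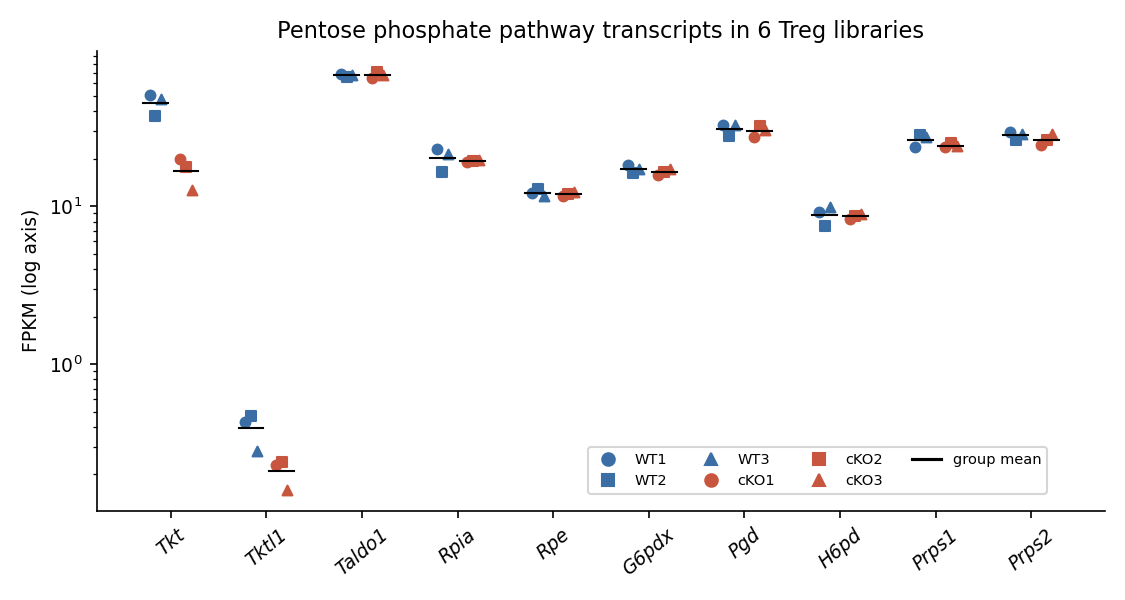
Level of each gene in FPKM on a log axis, by library, with WT in blue, cKO in red, symbols for the replicate number and black bars for group means. Tkt drops from 37.11 to 50.77 FPKM in WT to 12.74 to 19.79 FPKM in cKO, while 8 of the other 9 genes overlap between the groups and Tktl1 is the exception, far below all others.

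The paralog Tktl1, a transketolase-like protein of the X chromosome (positions 74177259 to 74208498), was close to the detection limit and was not higher in cKO. Its counts were 19, 20 and 12 in WT and 10, 11 and 7 in cKO. All cKO libraries lay below all WT libraries, but cKO2 and WT3 were only 1 count apart, and counting alone gives a spread of 24.3% at the WT mean of 17 reads. The fitted level in cKO was 54.1% of WT (95% interval 29.7% to 98.6%; log2 fold change -0.89 ± 0.37 SE), and edgeR's test did not call it (adjusted p = 0.634). With 1 library left out the log2 fold change was -1.09 to -0.71, and limma gave -0.66 on log2(FPKM + 0.1) and -0.20 on log2(FPKM + 1), a scale that understates changes of genes this low. Per length, Tktl1 stood at 0.583% to 1.27% of the level of Tkt in the WT libraries and at no more than 1.36% in the cKO libraries.

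The other 3 enzymes of the non-oxidative branch did not pass the test. Taldo1 encodes transaldolase, the partner of transketolase in the branch, on chromosome 7 (141392160 to 141402976). It measured 85.6, 85.4 and 85.0 CPM in WT against 84.1, 89.1 and 83.9 CPM in cKO. The groups overlapped and the means nearly coincided, at 101% of WT with a 95% interval of 90.5% to 112% (adjusted p = 0.996, edgeR). Rpia, ribose 5-phosphate isomerase (chromosome 6, 70765720 to 70792175), measured 41.8, 31.2 and 39.9 CPM in WT against 36.1, 36.0 and 36.2 CPM in cKO. WT2 alone was low, and the cKO libraries lay within the WT range (95.8% of WT, 79.4% to 116%). Its log2 fold change was -0.06 with all libraries and -0.18 without WT2, with or without cKO1. Rpe, the epimerase that interconverts ribulose and xylulose 5-phosphate (chromosome 1, 66700797 to 66719805), measured 30.2, 33.3 and 28.9 CPM in WT against 30.0, 29.8 and 30.5 CPM in cKO. It too overlapped between the groups (97.7% of WT, 85.7% to 111%). For these 3 genes the intervals leave out a fall of the size seen for Tkt, or any fall below 79.4% of WT.

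The 3 enzymes of the oxidative branch did not pass either. G6pdx, glucose 6-phosphate dehydrogenase, catalyses the first and committed step and lies on the X chromosome (74409483 to 74428880). It measured 47.0, 43.7 and 44.8 CPM in WT against 42.6, 43.3 and 44.6 CPM in cKO, which overlap (96.2% of WT, 85.9% to 108%; adjusted p = 0.941, edgeR). The count of its copy G6pd2 was 0 in 5 libraries and 0.13 in cKO3, so little was assigned there. Pgd, 6-phosphogluconate dehydrogenase, which makes the second NADPH of the branch (chromosome 4, 149149991 to 149166705), measured 62.7, 57.0 and 62.7 CPM in WT against 55.5, 63.3 and 60.6 CPM in cKO. WT2 and cKO1 were its low libraries, one in each group, and the fitted level was 98.3% of WT (86.0% to 112%). H6pd, the enzyme that carries out the first steps inside the endoplasmic reticulum (chromosome 4, 149979474 to 150009023), measured 44.3, 39.6 and 49.3 CPM in WT against 43.8, 43.5 and 44.3 CPM in cKO. All 3 cKO libraries lay inside the WT range, at 98.8% of WT (84.8% to 115%), and the log2 fold change went from -0.02 to -0.09 without WT2 and cKO1.

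Prps1 and Prps2, the synthetases that turn ribose 5-phosphate into phosphoribosyl pyrophosphate (PRPP) for nucleotide synthesis, did not pass the test. Both lie on the X chromosome (140456603 to 140476140 and 167346320 to 167382872). Prps1 measured 45.9, 57.1 and 53.4 CPM in WT against 48.3, 49.0 and 46.4 CPM in cKO, so that WT1 was the lowest of all 6 libraries. Its fitted level was 91.9% of WT (78.6% to 107%; adjusted p = 0.878, edgeR). The log2 fold change of -0.12 became -0.06 without WT2 and cKO1, and ranged from -0.20 to -0.05 with 1 library left out (without WT1 and without WT2). Prps2 measured 105, 96.7 and 106 CPM in WT against 91.1, 94.5 and 103 CPM in cKO, with cKO3 inside the WT range. Its fitted level was 94.0% of WT (82.7% to 107%; adjusted p = 0.905).

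**Figure D2:**
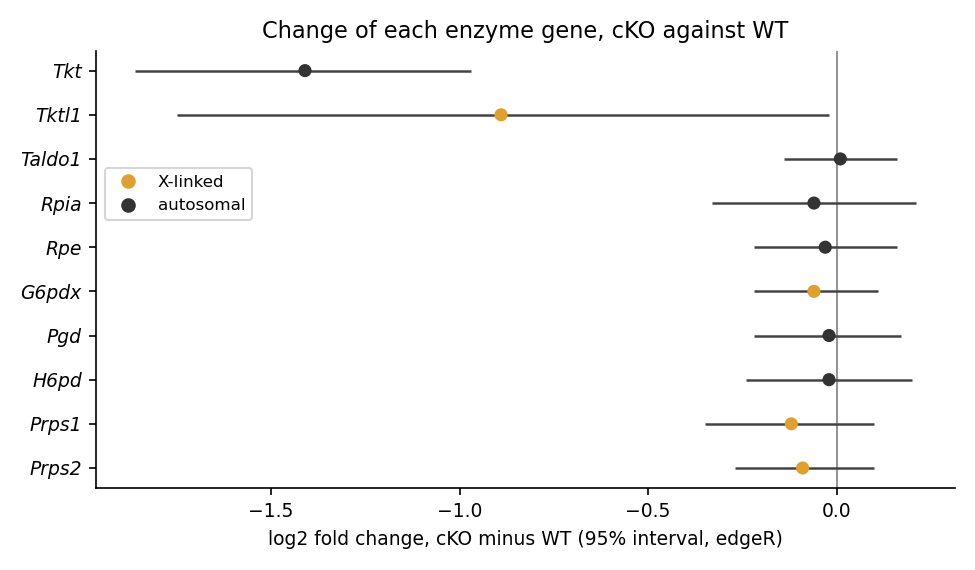
Log2 fold change of each gene, cKO minus WT, with its 95% interval from edgeR's fit; orange points are X-linked and dark points autosomal genes. The interval of Tkt runs from -1.86 to -0.97, that of Tktl1 from -1.75 to -0.02, and those of the other 8 genes hold 0.

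As a set, none of the 10 members was called by edgeR's test, against 0.21% of all genes tested. At an unadjusted p under 0.05 there were 2 members, Tkt and Tktl1, against 7.69% of all genes. DESeq2 called 1 member, Tkt, where it called 1.37% of all genes, and limma-voom called none. The fit without WT2 and cKO1 also called Tkt alone among them, where it called 0.55% of all genes. The groups did not overlap for the same 2 genes, both lower in cKO, against 8.12% of all genes lower and 6.1% higher without overlap. Of the 9 members other than Tkt, 8 had a log2 fold change below 0, where 48.6% of all genes did. Among these 8, Rpia, Rpe, Pgd and H6pd lay at -0.06 to -0.02, and each turned sign in some fit with 1 library left out. The rest were X-linked, and 68.4% of tested X-linked genes lay below 0. The median of the 9 was -0.055, against 0.004 over all genes tested.

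Measured per length, the order of the levels changed for Tkt alone. In WT libraries Taldo1 was highest (67.7 ± 1.6 FPKM, SD, n = 3), and Tkt was next (45.3 ± 7.22 FPKM). Pgd (31.0 ± 2.65), Prps2 (28.1 ± 1.72) and Prps1 (26.4 ± 2.41 FPKM) followed, with ranges that overlapped from one to the next. Rpia (20.3 ± 3.47) and G6pdx (17.2 ± 1.02 FPKM) also overlapped each other. Rpe (12.2 ± 0.623), H6pd (8.84 ± 1.25) and Tktl1 (0.393 ± 0.1 FPKM) were each separate from their neighbours. In cKO libraries Tkt took the sixth place at 16.7 ± 3.62 FPKM, between Rpia (19.3 ± 0.355) and G6pdx (16.5 ± 0.771 FPKM), and overlapped both. The remaining 9 genes kept their order among themselves. By mean FPKM, Tkt exceeded 86.6% of the genes tested in WT and 64.7% in cKO. Taldo1 exceeded 91.9% in both groups, and H6pd 48.1% and 47.6%.

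Tkt carried most of the difference in the summed level of the 10 genes. The sum was 269, 239 and 265 FPKM in WT and 215, 229 and 222 FPKM in cKO, which do not overlap. Without Tkt it was 218, 202 and 217 FPKM in WT and 195, 212 and 209 FPKM in cKO, which do. Tkt made up 18.9%, 15.5% and 18.1% of the sum in WT and 9.2%, 7.7% and 5.75% in cKO. Within the non-oxidative branch, the ratio of Tkt to Taldo1 was 0.735, 0.563 and 0.706 in WT and 0.305, 0.248 and 0.188 in cKO. The ratio of the summed non-oxidative enzymes, Tkt included, to the summed oxidative enzymes was 2.51 to 2.59 in WT and 1.98 to 2.24 in cKO. Without Tkt the non-oxidative enzymes summed to 95.7 to 105 FPKM in WT and 95.6 to 103 FPKM in cKO, which overlap. Other ratios overlapped between the groups, such as that of Pgd to G6pdx (1.73 to 1.89 in WT, 1.75 to 1.95 in cKO) and that of Prps2 to Prps1 (0.929 to 1.24 and 1.02 to 1.2).

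**Figure D3:**
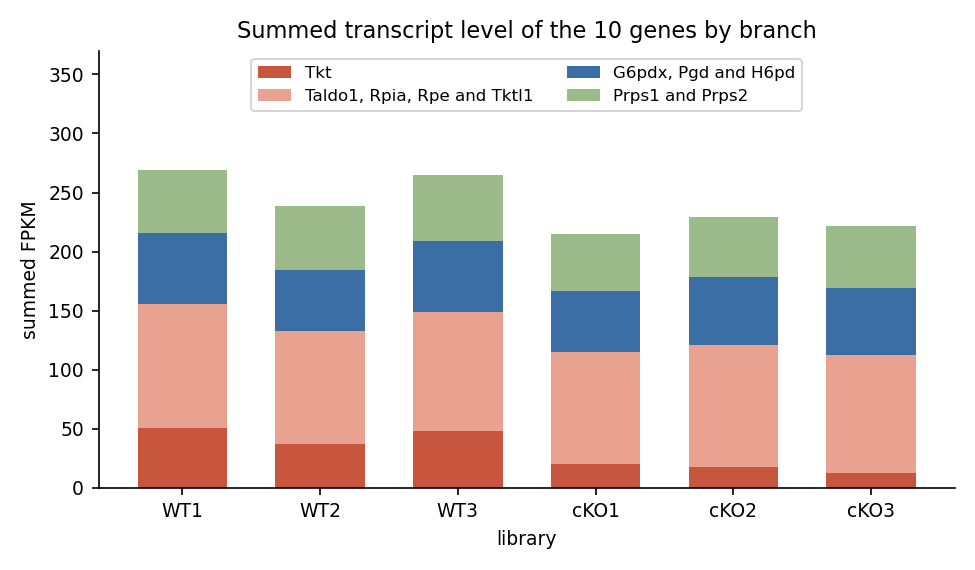
Summed FPKM of the 10 genes in each library, stacked by branch from 0. The Tkt segment shrinks from 37.11 to 50.77 FPKM in WT to 12.74 to 19.79 FPKM in cKO, and the other segments together make 195 to 218 FPKM in all 6 libraries.

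Genes around the pathway were looked up in 6 lists, and none of their 69 tested members was called by edgeR, DESeq2 or limma-voom. Over all 12887 genes tested, edgeR called 0.21%, DESeq2 1.37% and limma-voom 19 genes. The groups did not overlap for 8 of the 69 list members, 4 lower and 4 higher in cKO, against 8.12% and 6.1% of all genes. The first list holds 12 further genes of the pathway, of which 9 were tested, with 5 below and 4 above 0 and a median log2 fold change of -0.003. Its largest differences by p were Prpsap1, a regulatory partner of the PRPP synthetases, and Pgm2. Prpsap1 averaged 59.4 ± 6.09 CPM in WT against 65.9 ± 4.41 CPM in cKO (SD, n = 3), a log2 fold change of 0.15 ± 0.10 SE. Pgm2 averaged 31.7 ± 1.01 CPM in WT against 29.5 ± 2.51 CPM in cKO (-0.10 ± 0.09 SE). Both overlapped between the groups, and without WT2 and cKO1 they stood at 0.04 and -0.03. The second list holds enzymes at the junction with glycolysis, where transketolase returns its products (16 tested, 10 below and 6 above 0, median -0.071). Gapdh, the dehydrogenase that takes up glyceraldehyde 3-phosphate, averaged 850 ± 25.5 CPM in WT against 760 ± 77.3 CPM in cKO (adjusted p = 0.789, edgeR). Its log2 fold change was -0.16 ± 0.09 SE, and -0.15 without WT2 and cKO1. Tpi1, triose phosphate isomerase, stood at 131 ± 9.13 and 115 ± 13.5 CPM (-0.18 ± 0.10 SE, and -0.05 without WT2 and cKO1). Neither difference exceeded the spread of the libraries by the test, and reads of Gapdh can be shared with its many pseudogenes.

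The third list covers the supply of thiamine, whose diphosphate is the cofactor of transketolase, and other thiamine-dependent enzymes (10 tested, 6 below and 4 above 0, median -0.059). Ogdh, the thiamine-dependent subunit of the 2-oxoglutarate dehydrogenase complex and the most abundant gene of the list, averaged 238 ± 26.5 CPM in WT against 247 ± 2.73 CPM in cKO, with WT2 as its lowest library and overlapping groups.

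Other sources of NADPH made up the fourth list (11 tested, 3 below and 8 above 0, median 0.115). Me2, a mitochondrial malic enzyme, measured 72.5, 68.8 and 73.7 CPM in WT against 89.4, 80.5 and 82.3 CPM in cKO, without overlap. It was not called (adjusted p = 0.459 in edgeR's test; log2 fold change 0.23 ± 0.07 SE, and 0.16 without WT2 and cKO1). Idh1, cytosolic isocitrate dehydrogenase, was low and also higher in all cKO libraries (3.49 ± 0.400 to 4.26 ± 0.185 CPM; adjusted p = 0.824, edgeR). Its log2 fold change was 0.28 ± 0.18 SE, and 0.21 without WT2 and cKO1. Nadk, the cytosolic NAD kinase, stood at 97.2 ± 6.53 and 101 ± 4.81 CPM. The fifth list holds Nrf2 (Nfe2l2), a transcription factor of the oxidative stress response that is known to act on genes of this pathway, with its inhibitor Keap1 and classic targets (11 tested, 2 below and 9 above 0, median 0.056). Osgin1 measured 44.9, 46.4 and 49.3 CPM in WT against 76.1, 51.6 and 54.2 CPM in cKO (adjusted p = 0.614), and its log2 fold change was 0.37 with all libraries and 0.17 without WT2 and cKO1. Srxn1, sulfiredoxin, was near the detection limit (1.10 ± 0.461 to 0.463 ± 0.276 CPM; log2 fold change -1.22, and -0.46 without WT2 and cKO1), and Gclc, the catalytic subunit of glutamate-cysteine ligase, stood at 72.3 ± 6.15 and 72.9 ± 6.72 CPM. The sixth list holds enzymes that use PRPP (12 tested, 7 below and 5 above 0, median -0.028). Aprt, adenine phosphoribosyltransferase, had its lowest p (43.0 ± 3.26 to 37.8 ± 2.96 CPM; adjusted p = 0.733, edgeR), followed by Naprt at 1.53 ± 0.562 and 0.735 ± 0.591 CPM. Their log2 fold changes were -0.19 and -1.04, and -0.18 and -0.78 without WT2 and cKO1. Atic, a late enzyme of purine synthesis, stood at 109 ± 9.65 and 113 ± 5.47 CPM.

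**Figure D4:**
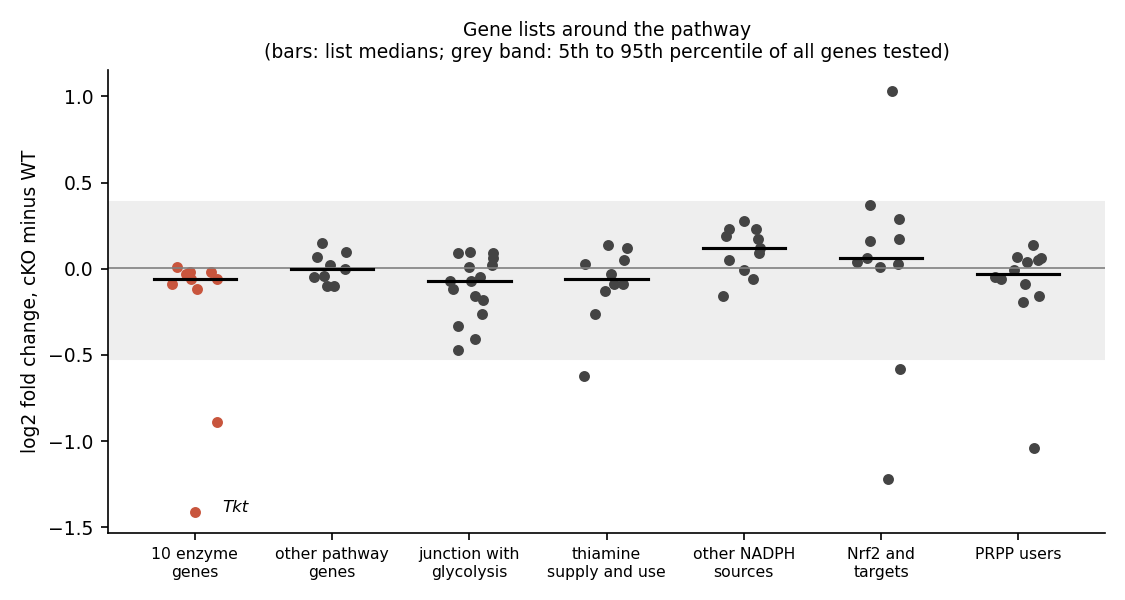
Log2 fold change, cKO minus WT, of the 10 enzyme genes (red) and of the tested genes of 6 lists around the pathway (dark), with list medians as bars and a grey band from the 5th to the 95th percentile of all genes tested (-0.53 to 0.39). Tkt lies at -1.41, and the list medians lie between -0.071 and 0.115.

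The genes next to Tkt on chromosome 14 were read as well, since the floxed allele sits there. The nearest tested gene on either side, Dcp1a (an mRNA decapping factor, 22.1 kb before Tkt) and Prkcd (protein kinase C delta, 20.6 kb after it), overlapped between the groups. Dcp1a stood at 79.7 ± 4.27 and 81.3 ± 7.66 CPM and Prkcd at 92.9 ± 1.45 and 98.3 ± 4.75 CPM in WT and cKO (SD, n = 3). Sfmbt1, further on, had a log2 fold change of -0.15 ± 0.12 (SE), and its groups overlapped. On the other side, 58 kb away, Cacna1d, a calcium channel subunit, measured 9.54, 11.4 and 9.91 CPM in WT against 5.87, 6.65 and 5.51 CPM in cKO. The groups did not overlap, yet edgeR did not call it (log2 fold change -0.77 ± 0.14 SE, adjusted p = 0.122), while DESeq2 did (adjusted p = 0.0141). Without WT2 and cKO1 the log2 fold change of Cacna1d was -0.67. Chdh, choline dehydrogenase, whose annotation overlaps that of Cacna1d at one end, was also lower in every cKO library (4.71, 4.31 and 5.35 CPM against 3.43, 3.33 and 2.51 CPM; adjusted p = 0.467 in edgeR's test). Of all genes tested, 8.12% were lower in cKO without overlap, and DESeq2 called 1.37%. Cacna1d shares positions 30039941 to 30040468 with Chdh and the longer stretch 30479486 to 30491156 with Dcp1a, the more abundant gene. These are overlaps of whole-gene positions, and the exons and strands in them were not looked up. Reads from either stretch may not be assignable to 1 gene. The values of Cacna1d, Chdh and Dcp1a could be uncertain on this ground, which was not tested.

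**Figure D5:**
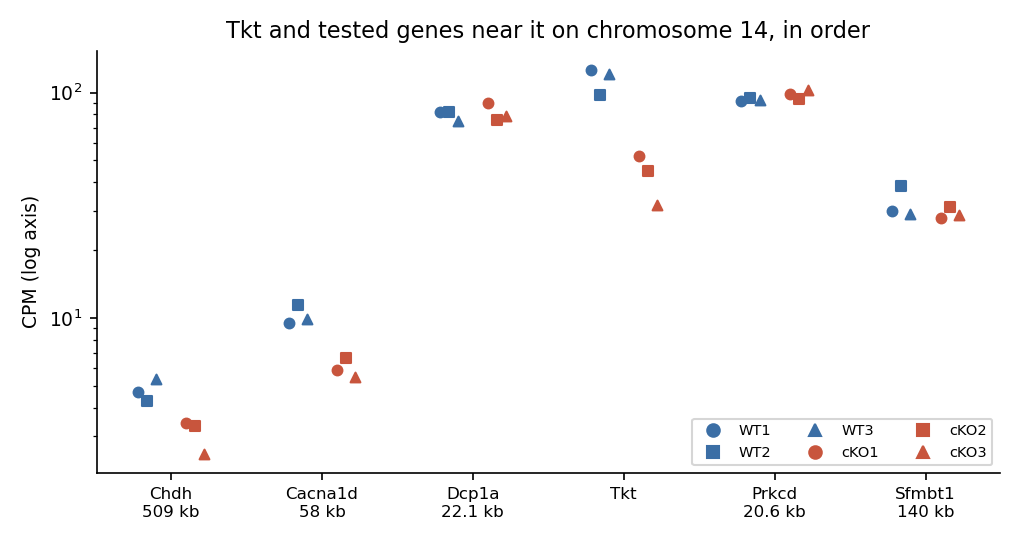
CPM on a log axis of Tkt and of tested genes near it on both sides, in chromosomal order, with the gap to Tkt in kb under each name; WT in blue, cKO in red, symbols for the replicate number. Besides Tkt, Cacna1d and Chdh are lower in all cKO libraries, as are 8.12% of all genes tested. The 2 direct neighbours Dcp1a and Prkcd are not.

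The genes whose pattern over the 6 libraries was most like that of Tkt were Myo1f (Pearson's r of log2 CPM 0.995), Phf21b (0.993), Atp2b4 (0.993), Rnf43 (0.992) and Colq (0.990), out of 11114 genes compared. Like Tkt, all 5 were lower in the cKO libraries, and within WT all 5 had WT2 as their lowest library. Myo1f, an unconventional myosin of immune cells, measured 27.1, 21.7 and 28.5 CPM in WT against 14.5, 12.1 and 10.1 CPM in cKO. Rnf43, a ubiquitin ligase that dampens Wnt signalling, stood at 71.0, 58.5 and 65.2 CPM against 39.1, 38.4 and 32.9 CPM, and was the only one of the 5 called by edgeR (log2 fold change -0.82 ± 0.11 SE, adjusted p = 0.0474). That call was lost without WT1, WT3 or any 1 cKO library, fits in which edgeR called 0 genes. Tkt differs between the groups, so genes that differ the same way score high by construction, and these values are a description.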

How the data were processed

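Per the submitters' processing notes, the tools were featureCounts 1.5.0-p3, HISAT2 2.0.5 and DESeq2 1.16.1 on build mm10, with no role or order given. The authors deposited 1 table of 18493 genes with estimated counts per gene, not normalized, and FPKM, which the authors scaled by length and depth (a reading of the values themselves). Between 45.4% and 46.3% of the deposited estimated counts in a library were not whole (tolerance 0.01), and the sources used here do not say how these arose. Lines ended in carriage returns, and 23 symbols turned into dates were restored through Entrez identifiers, of which 17412 matched RefSeq (GRCm38.p6, the build of the coordinates). Unnamed genes (956) took 2.11% to 2.33% of reads and stayed in the fit.

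Estimated counts were rounded and tested in R 4.3.3 with edgeR 4.0.16 (filterByExpr with a minimum count of 10, TMM scaling, quasi-likelihood F test on group), with Benjamini-Hochberg adjustment over all 12887 genes tested. All 10 members passed the filter. Standard errors come from the F statistic and 95% intervals from its degrees of freedom. CPM uses the TMM-scaled library sizes. Tests are two-sided. The common biological coefficient of variation came to 16.7%. Alternatives were DESeq2 1.42.0, limma-voom (limma 3.58.1), limma on log2(FPKM + 0.1) and log2(FPKM + 1), RLE scaling, no filter, a filter of 1 CPM in 3 libraries, edgeR's newer fit, a replicate block, and left-out libraries. The code was tested on simulated data.

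The members and lists were chosen with earlier results of these data known. The text names all members, of each list the 2 genes with the lowest p and the most abundant one, the 3 nearest tested genes on each side of Tkt, and the 5 named genes (mean of at least 1 CPM) best correlated with Tkt. Some genes that this rule selects are not reported here; they stay in the fit and in the counts over lists.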

Additional observations from a re-analysis of the deposited data

How the results depend on the processing

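Over the 16 alternatives, Tkt stayed lower in cKO, with log2 fold changes of -1.24 to -1.58 with 1 library left out. It was called with DESeq2, with no low-count filter, with the stricter filter and with the newer edgeR fit (-1.41 in each), and without WT2 and cKO1 (-1.68), and in each of these 5 it was the 1 member called. No other member was called in any alternative. Tktl1 did not pass the stricter filter, so it was not tested in that fit. Libraries with the same replicate number had correlations of deviations from their group means of -0.28, 0.06 and 0.26. Those of the other pairs ran from -0.38 to 0.31. With 3 libraries per group these values cannot decide whether the numbers pair the libraries. In edgeR's fit with the replicate block Tkt had a log2 fold change of -1.43 and an adjusted p of 0.189. The count of genes called, 27, was 177 with DESeq2, 43 with no filter, 0 with the replicate block, 0 and 9 with limma on log2(FPKM + 0.1) and log2(FPKM + 1), 71 without WT2 and cKO1, and 0 to 30 with 1 library left out (0 for each library but WT2). The causes were not tested. Of the reported genes near Tkt, DESeq2 called 1, Cacna1d (adjusted p = 0.0141), 58 kb away and not a direct neighbour. Log2 fold changes near 0 turned sign for Taldo1 (-0.03 without cKO2), Rpia (0.02 without WT1), Rpe (0.03 without WT2, and without WT2 and cKO1), Pgd (0.0005, 0.0001 and 0.03 without WT1, WT3 and cKO1) and H6pd (0.07 without WT3). With 1 library left out their ranges were -0.03 to 0.02, -0.18 to 0.02, -0.07 to 0.03, -0.07 to 0.03 and -0.09 to 0.07. Among the neighbours, Dcp1a turned to -0.01, -0.05 and -0.02 without WT3, cKO1, and WT2 and cKO1, and Sfmbt1 to 0.02 without WT2 and cKO1. With 1 library left out Dcp1a ranged from -0.05 to 0.08. Depth limits Tktl1 alone among the members, at 7 to 20 counts.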

Other observations

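Of the 10 enzyme genes, 4 lie on the X chromosome (Tktl1, G6pdx, Prps1 and Prps2), and all 4 had log2 fold changes below 0 (-0.89, -0.06, -0.12 and -0.09). The whole X chromosome was therefore read in the same fit, a step added after these values had been seen. Over 389 tested X-linked genes the median log2 fold change was -0.06 and 68.4% lay below 0, while over 11889 autosomal genes the median was 0.006 and 48.0% lay below 0. G6pdx thus lay close to the X-linked median, and Prps1 and Prps2 lay below it. Without WT2 and cKO1 the X-linked median was -0.035 and 59.5% of X-linked genes lay below 0. The share of reads from X-linked genes was 3.02%, 2.99% and 3.02% in WT1 to WT3 and 2.84%, 2.95% and 3.03% in cKO1 to cKO3, with cKO3 the highest of the 6 libraries and cKO1 and cKO2 below all WT libraries. No test of this difference was run.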
